A study of Homo sapiens with 1 sample.

Results

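The let-7 family guide arms are the 5p strands of the let-7 hairpins together with miR-98-5p, and they were examined in the human colorectal carcinoma line DLD-1. The 9 members were hsa-let-7a-5p, hsa-let-7b-5p, hsa-let-7c-5p, hsa-let-7d-5p, hsa-let-7e-5p, hsa-let-7f-5p, hsa-let-7g-5p, hsa-let-7i-5p and hsa-miR-98-5p, written below without the human prefix. They were chosen by name among the 2549 human microRNAs (miRNAs) on the array, and the rule of choice used no measured value. Earlier results of these data were known when they were chosen. The cells had received a negative control siRNA (si-NC), and their total RNA was hybridised to 1 single-colour Agilent miRNA array (n = 1). The question behind the array was how miRNAs respond to loss of circLONP2, a circular RNA that derives from the LONP2 gene. An array of knockdown cells was not analysed here, and without a second group no p-value was computed. Errors below come from spots or from the scanner software and are technical.

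A miRNA is cut from a hairpin precursor, and the strand that is loaded into an Argonaute protein, called the guide, pairs with messenger RNAs mainly through its seed, bases 2 to 8. The let-7 family is known for its role in developmental timing and for accumulating as cells differentiate. Its known targets include RAS genes, HMGA2 and MYC, and the RNA-binding protein LIN28 is known to block maturation of let-7 precursors. In colorectal and other carcinomas the family is usually described as growth-restraining.

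The mature sequences show how alike the members are, and they are given here 5′ to 3′ with the seed in capitals, from RefSeq on GRCh38.p14, where all 9 names matched.
let-7a-5p: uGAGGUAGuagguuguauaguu
let-7b-5p: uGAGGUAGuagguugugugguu
let-7c-5p: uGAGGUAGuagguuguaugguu
let-7d-5p: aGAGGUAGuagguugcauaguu
let-7e-5p: uGAGGUAGgagguuguauaguu
let-7f-5p: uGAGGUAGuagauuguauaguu
let-7g-5p: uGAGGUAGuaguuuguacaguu
let-7i-5p: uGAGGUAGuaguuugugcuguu
miR-98-5p: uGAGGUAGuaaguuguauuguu
All 9 shared the seed GAGGUAG and a length of 22 bases. Against let-7a-5p the family varied at 8 positions, and the other 14 were identical in every member. Counted from 1 at the 5′ end, with the base of let-7a-5p first, let-7c-5p carried A19G, let-7e-5p carried U9G and let-7f-5p carried G12A as their single changes. Substitutions A17G and A19G set let-7b-5p apart, U1A and U16C set let-7d-5p apart, and G12U and U18C set let-7g-5p apart. In miR-98-5p the changes were G11A and A19U, and in let-7i-5p they were G12U, A17G, U18C and A19U. Of the 36 pairs of members, 4 differed by 1 base, 10 by 2 bases, 11 by 3 bases and 9 by 4 bases. The most distant pair was let-7d-5p and let-7i-5p, at 6 bases.

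**Figure D1:**
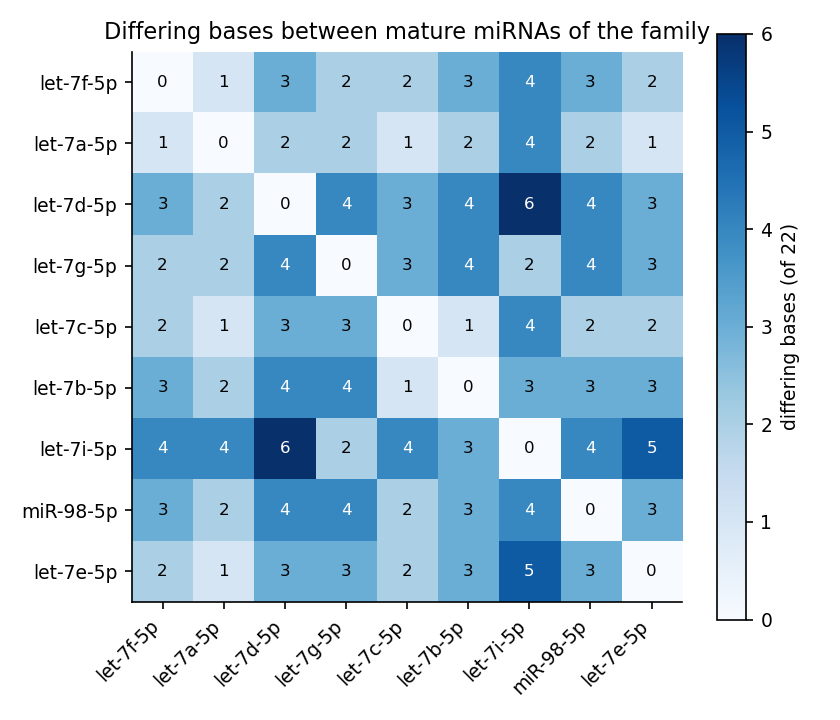
Number of differing bases, of 22, between each pair of mature let-7 and miR-98 guide arms, with the members on both axes in the order of their signal. Values run from 1 to 6 off the diagonal, and let-7a-5p stands 1 base from let-7c-5p, let-7e-5p and let-7f-5p.

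The members come from several loci, and some of them have more than 1 copy. On GRCh38.p14, let-7a-5p is encoded at chr9:94175962-94175983 on the + strand, at chr11:122146568-122146589 on the - strand and at chr22:46112752-46112773 on the + strand. Its chromosome 9 hairpin lies 310 bases before that of let-7f-5p (chr9:94176353-94176374) and in the same long non-coding host, MIRLET7A1HG, which also spans let-7d-5p (chr9:94178841-94178862). The chromosome 22 copy lies 863 bases from the hairpin of let-7b-5p (chr22:46113691-46113712), within MIRLET7BHG. The other copy of let-7f-5p (chrX:53557246-53557267, - strand) and miR-98-5p (chrX:53556299-53556320, - strand) come from hairpins 850 bases apart within HUWE1, a gene for a ubiquitin ligase. Single copies encode let-7c-5p (chr21:16539838-16539859, + strand, within MIR99AHG) and let-7e-5p (chr19:51692793-51692814, + strand, within SPACA6). Those of let-7g-5p (chr3:52268336-52268357, - strand, within WDR82) and let-7i-5p (chr12:62603691-62603712, + strand, within MIRLET7IHG) are single as well. An array reads the mature sequence only, so the copies of let-7a-5p, and those of let-7f-5p, cannot be told apart.

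The array held 53144 spots, of which 50980 were miRNA spots and 1000 were negative control spots, with a 99th percentile of 16.1 intensity units over the negative controls. No spot was saturated. All 5 miRNAs fixed as colon epithelium markers (miR-192-5p, miR-194-5p, miR-200c-3p, miR-141-3p and miR-215-5p) were called detected, where 44.4% of all miRNAs on the array were. Their total gene signals ran from 319 ± 23.7 for miR-194-5p (error from the scanner software) to 7625 ± 542 for miR-141-3p. Of 9 markers of other tissues 3 were called detected, all from blood, namely miR-451a with a total gene signal of 21.5 ± 1.67, miR-223-3p with 25.4 ± 1.97 and miR-142-3p with 695 ± 50.05. The signal of miR-142-3p thus lay above that of the colon marker miR-194-5p. The liver, muscle, neural and stromal markers miR-122-5p, miR-1-3p, miR-133a-3p, miR-124-3p, miR-143-3p and miR-145-5p were not called detected.

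All 9 guide arms were called detected by the scanner software, against 44.4% of all miRNAs on the array. Each was read by 2 probes of 10 spots, and all 180 spots were well above background, where 25.2% of all miRNAs had every spot so. The lowest kept spot of the family was 209 and the highest was 57974 after background subtraction. The total gene signal is the sum of both probes for each of the 9 guide arms, while dim probes can be left out of the sum in other miRNAs. Over all detected miRNAs it had a median of 12.5 and an upper quartile of 52.0.

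The total gene signal was 18935 ± 1345 for let-7f-5p (error from the scanner software) and 16584 ± 1173 for let-7a-5p. The next signals were 6417 ± 529 for let-7d-5p, 6187 ± 441 for let-7g-5p and 4478 ± 372 for let-7c-5p. Those of let-7b-5p, let-7i-5p and miR-98-5p were 2903 ± 206, 2418 ± 171 and 2009 ± 156. The signal of let-7e-5p was the lowest of the family at 473 ± 43.4. From lowest to highest the signals spanned 5.32 on the log2 scale. Probes bind with different strength, so these are array signals and their order is not an order of abundance.

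Not every step in that order was larger than its error. Neighbouring signals differed by less than 2 combined errors for 4 of the 8 steps. These were let-7f-5p over let-7a-5p (1.32 combined errors), let-7d-5p over let-7g-5p (0.335), let-7b-5p over let-7i-5p (1.81) and let-7i-5p over miR-98-5p (1.77). The remaining 4 steps were 7.90 errors from let-7a-5p to let-7d-5p, 2.96 from let-7g-5p to let-7c-5p, 3.71 from let-7c-5p to let-7b-5p and 9.52 from miR-98-5p to let-7e-5p. For 2 of those 4 steps, let-7g-5p to let-7c-5p and let-7c-5p to let-7b-5p, the signals of single probes of the neighbours still overlapped. The family thus read as a pair at the top, let-7e-5p at the bottom and 6 members between them whose order was only partly resolved.

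As a log2 level against a reference of 143 intensity units, which is the 75th percentile of all spots that belong to detected miRNAs, the members had a median of 6.01. Levels ran from 2.38 ± 0.13 for let-7e-5p (SD over replicate spots about their probe mean, 20 spots) to 8.49 ± 0.04 for let-7f-5p (19 spots). The level of let-7a-5p was 8.31 ± 0.05, that of let-7g-5p 6.87 ± 0.07, that of let-7d-5p 6.68 ± 0.03 and that of let-7c-5p 6.01 ± 0.02. Below them lay let-7b-5p at 5.79 ± 0.05, let-7i-5p at 5.53 ± 0.04 and miR-98-5p at 5.11 ± 0.05. On this scale let-7g-5p stood above let-7d-5p, the reverse of their total gene signals, since a mean of log2 spots gives a dim probe more weight than a sum does.

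The single spots were read next, probe by probe. For let-7f-5p the spots of probe A_25_P00010088 had a lowest, median and highest signal of 55464, 56598 and 57974, and those of A_25_P00010089 had 44775, 46994 and 49661. For let-7a-5p the same values were 43117, 45371 and 46866 for A_25_P00010086 and 42174, 46016 and 48935 for A_25_P00011584. The spot ranges of the let-7a-5p probes overlapped, that of A_25_P00011584 reaching past the other at both ends, while the let-7f-5p probes were close but did not overlap.

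For let-7b-5p the spots ran from 8078 through a median of 8371 to 8737 on A_25_P00010070, and from 6941 through 7554 to 7889 on A_25_P00010071. For let-7g-5p they ran from 13577 through 15077 to 15889.8 on A_25_P00012141, and from 17838 through 18917 to 19708 on A_25_P00012142. For let-7i-5p they ran from 5966 through 6303 to 6495 on A_25_P00012145, and from 6635 through 6943 to 7244 on A_25_P00012146. In each of these 3 members the probes lay side by side without a shared value.

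The other members had probes that stood far apart. The spots of let-7c-5p ran from 19373 through a median of 19854 to 20015 on A_25_P00010072, and from 4613 through 4698 to 4809.7 on A_25_P00010073. Those of let-7d-5p ran from 6717 through 7046 to 7364 on A_25_P00011980, and from 26904 through 28050.0 to 28801 on A_25_P00011981. In both, the brighter probe read about 4 times the dimmer one, with folds of 4.20 for let-7c-5p and 3.98 for let-7d-5p. For miR-98-5p the spots ran from 7495 through 8007 to 8429 on A_25_P00010047, and from 2908 through 3071 to 3157 on A_25_P00010048. For let-7e-5p they ran from 209 through 230.2 to 259 on A_25_P00011984, and from 2026 through 2363 to 2658 on A_25_P00011985. The lowest spot of the brighter let-7e-5p probe was thus far above the highest spot of the dimmer one, and even the dimmer one lay above the 99th percentile of the negative controls.

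**Figure D2:**
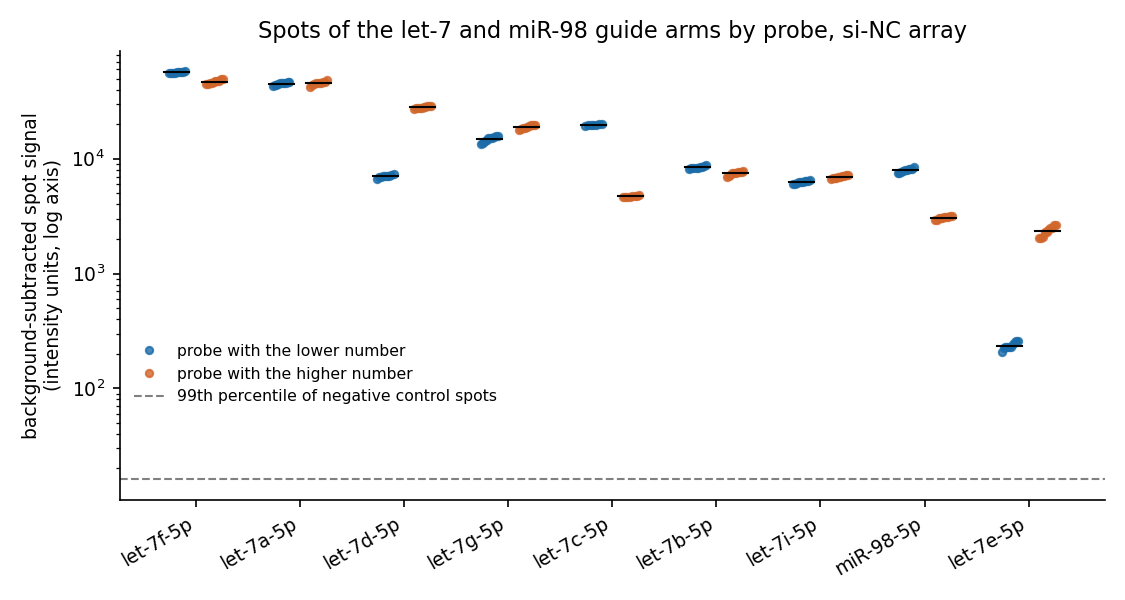
Background-subtracted signal of each kept spot (log axis, intensity units) for both probes of the 9 guide arms, with black lines at probe means and a dashed line at 16.1, the 99th percentile of negative control spots. Spots of a probe cluster tightly, and the probes of let-7c-5p, let-7d-5p, let-7e-5p and miR-98-5p are far apart while those of let-7a-5p overlap.

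Replicate spots of a probe agreed closely. Over the 18 probes of the family the coefficient of variation (CV) had a median of 2.71%, from 1.10% for A_25_P00010072 of let-7c-5p to 10.1% for A_25_P00011985 of let-7e-5p. Over the 1943 probes of the array that passed a filter on dim probes (50% or more of the spots well above background) the median was 8.74%, and over the 208 with a mean of 1000 and over, which are closer to the family in signal, it was 3.76%. The scanner software gave each family probe an error of 10.0% to 10.1% of its signal and each total an error of 7.07% to 9.18%. Of the 180 spots 10 were marked as outliers by the software (5.56%, against 4.51% of all miRNA spots) and were left out. Of those 10, 4 lay above and 6 below all kept spots of their probe, at 0.866 to 1.10 times its median. Of the same 10, 5 belonged to let-7c-5p, 3 of them to A_25_P00010072, the probe with the lowest CV. With outlier spots kept the median CV over the family probes was 3.39%.

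The difference between the brighter and the dimmer probe of a member, as mean log2 spot signals, was then set against that error. It was 3.31 ± 0.06 for let-7e-5p (SE from replicate spots), 2.07 ± 0.01 for let-7c-5p, 1.99 ± 0.02 for let-7d-5p and 1.37 ± 0.02 for miR-98-5p. For the other 5 members it was 0.35 ± 0.03 for let-7g-5p, 0.27 ± 0.02 for let-7f-5p, 0.17 ± 0.02 for let-7b-5p, 0.15 ± 0.02 for let-7i-5p and 0.01 ± 0.02 for let-7a-5p. Thus 4 of the 9 members had probes 1 or more apart, where 19.2% of 801 detected miRNAs with 2 or more probes past the filter did. The share was 14.3% of the 683 miRNAs read by 2 such probes, as the let-7 members are, and 13.0% of the 560 of these with every spot well above background. The median difference of the members was 0.35, the same as over all 801 miRNAs, so the family held both members with closely matching probes and members with widely differing ones, and none between 0.35 and 1.37. Spots of the brighter and the dimmer probe did not overlap for 8 of the 9 members, against 48.7% of the 801, with let-7a-5p as the exception. The 801 include much dimmer miRNAs, and replicate spots spread more over all probes past the filter (median CV 8.74%) than in the family (2.71%). Overlap was not counted over miRNAs of like signal, so the 8 of 9 is not read as a trait of the family. Counts over 9 related miRNAs describe this family on this array and were not tested.

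**Figure D3:**
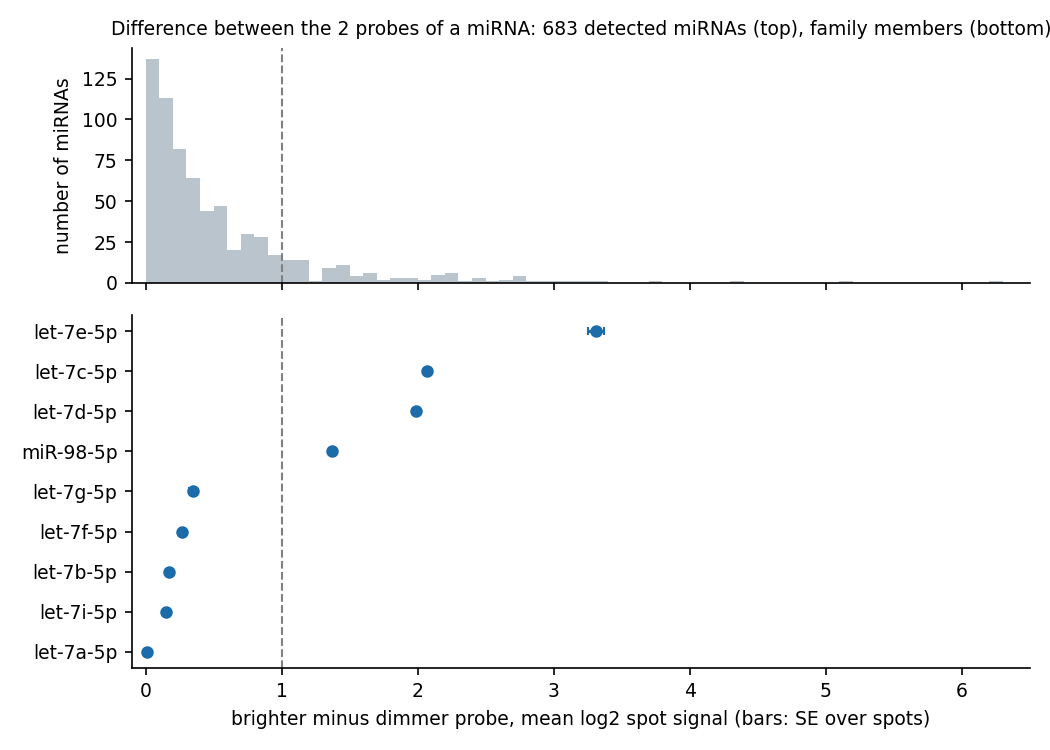
Brighter minus dimmer probe in mean log2 spot signal, as a histogram over the 683 detected miRNAs read by 2 probes (top) and as points with SE over spots for the 9 guide arms (bottom), with a dashed line at 1. Most of the 683 lie under 1, and let-7e-5p, let-7c-5p, let-7d-5p and miR-98-5p lie above it at 3.31, 2.07, 1.99 and 1.37.

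Members equally close to let-7a-5p in sequence could have probes that matched or probes that stood far apart. Both let-7e-5p, with probes 3.31 apart, and let-7f-5p, with probes 0.27 apart, differ from let-7a-5p by 1 base, U9G and G12A. Position 19 was changed in let-7c-5p and miR-98-5p, whose probes differed by 1 or more, and also in let-7b-5p and let-7i-5p, whose probes differed by 0.17 and 0.15. The brighter probe had the higher number in let-7d-5p and let-7e-5p and the lower number in let-7c-5p and miR-98-5p. The bases that each probe covers were not used here, and whether near-identical members bound each other's probes was not tested.

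Where probes disagreed, the total gene signal rested mainly on 1 of them. The brighter probe gave 90.9% of the total of let-7e-5p, 80.8% of that of let-7c-5p, 79.9% of that of let-7d-5p and 72.2% of that of miR-98-5p. In the other 5 members its share was 50.2% to 56.0%. If both probes of let-7e-5p had read like the brighter one its total would have been 859, and if both had read like the dimmer one it would have been 86.3, a range far wider than the software error of 43.4. The same bounds were 7234 and 1722 for let-7c-5p, 10257 and 2578 for let-7d-5p and 2900.4 and 1118 for miR-98-5p. For let-7a-5p they were 16664 and 16505. By the brighter probe let-7c-5p took place 4 in the family, and by the dimmer probe it took place 7. For let-7d-5p the places were 3 and 5, and for miR-98-5p 7 and 8. Members with closer probes moved the other way, let-7g-5p from 5 to 3, let-7b-5p from 6 to 4 and let-7i-5p from 8 to 6. Both let-7f-5p and let-7a-5p kept the first places and let-7e-5p the last place by either probe.

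**Figure D4:**
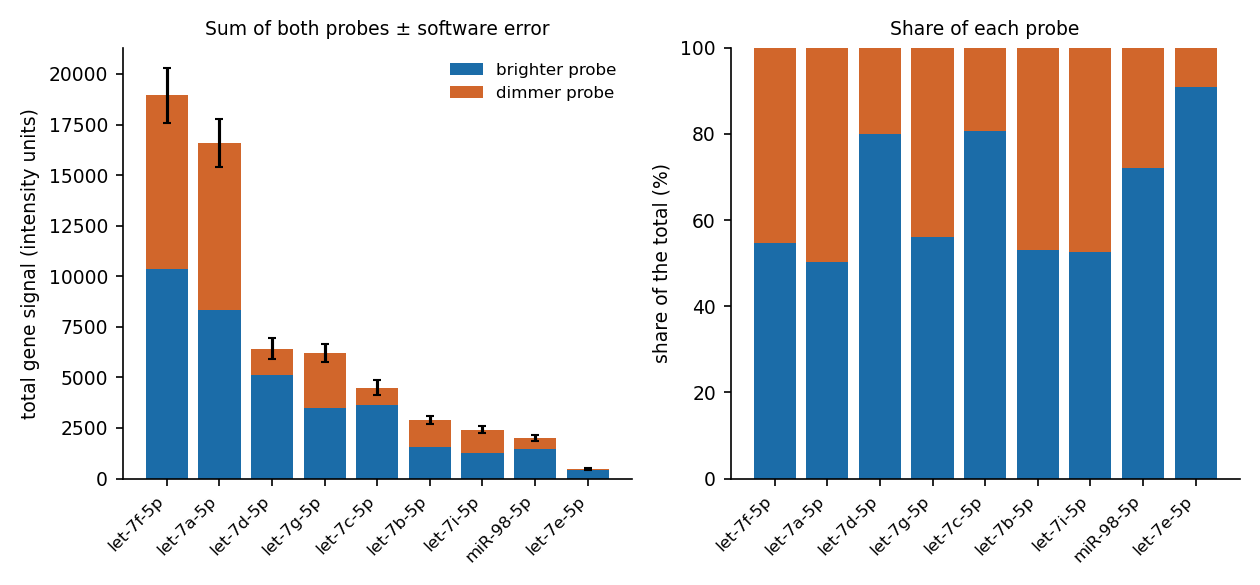
Total gene signal of each guide arm in intensity units, split into its brighter and dimmer probe, with the software error of the total as bars (left), and the share of each probe in percent (right). The brighter probe holds 50.2% of the total for let-7a-5p and 90.9% for let-7e-5p.

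Other families of near-identical miRNAs were read in the same way to see whether such probe differences also occur there. Among the 5 miR-30 5p arms the difference was 2.40 ± 0.05 for miR-30a-5p and 0.41 to 0.79 for the other 4. Among the miR-181 5p arms it was 1.27 ± 0.08 for miR-181d-5p, 0.80 ± 0.03 for miR-181b-5p and 0.71 ± 0.03 for miR-181a-5p, and miR-181c-5p had too few spots above background for a value. Thus 1 of 5 and 1 of 3 had probes 1 or more apart, and the let-7 family was not the only one with such a member.

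The passenger arms are the opposite strands of the same hairpins and are mostly degraded once the guide is loaded. Of the 11 passenger arms listed, 10 were read here and let-7a-2-3p was not on the array. Of the 10, 8 were called detected, where 44.4% of all miRNAs on the array were. Every spot was well above background for 3 of the 10, where 25.2% of all miRNAs had every spot so. These 3 were let-7a-3p at 223 ± 16.6, let-7b-3p at 41.8 ± 2.45 and let-7f-1-3p at 28.1 ± 1.63. The signal was 18.5 ± 1.56 for let-7f-2-3p and 5.20 ± 0.514 for let-7d-3p, with 11 and 15 of 20 spots well above background. For let-7i-3p it was 3.18 ± 0.415 with 6 such spots, for miR-98-3p 1.66 ± 0.508 with 1 and for let-7g-3p 0.975 ± 0.259 with 1. Both let-7c-3p and let-7e-3p were called undetected, with 1 of 20 spots each well above background. Thus 5 of the 10 passenger arms read had a total signal of 5 or more, where the lower quartile over all detected miRNAs was 4.99. The lowest guide arm, let-7e-5p, had 473. If both of its probes had read like the dimmer one it would have had 86.3, below the 223 of let-7a-3p.

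The passenger arms are less alike than the guides, with 2 to 11 edits over the 45 pairs of the 10 arms matched in RefSeq, which include let-7a-2-3p and not let-7f-2-3p. The 3 with every spot above background are shown with bases 2 to 8, which they share, in capitals.
let-7a-3p: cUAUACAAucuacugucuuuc
let-7b-3p: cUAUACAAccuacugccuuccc
let-7f-1-3p: cUAUACAAucuauugccuuccc
Of the passenger arms 7 were read by 4 probes of 5 spots. The 4 probes of let-7a-3p had mean spot signals of 52.4 ± 4.30, 198 ± 9.94, 436 ± 26.4 and 1749.7 ± 53.5 (SD, 5 spots) in the order of their probe numbers. For let-7b-3p the means were 35.0 ± 12.7, 104 ± 30.7, 122 ± 49.9 and 196 ± 28.2, and for let-7f-1-3p they were 32.4 ± 7.28, 62.4 ± 17.3, 99.2 ± 32.4 and 114 ± 22.3. The mean rose at every step of the probe number in these 3. Neighbouring probes of let-7b-3p and let-7f-1-3p overlapped within their SD at each step after the first. These 3 were the passenger arms with 4 probes past the filter, and 3 of 3 rose at every step, against 52.6% of 57 detected miRNAs with 4 such probes over the array. The other 4 had at least 1 dim probe. Means below 16.1, the 99th percentile of the negative controls, were those of every probe of let-7g-3p, of all but the brightest probe of let-7i-3p, of both dimmer probes of let-7f-2-3p and of the dimmest probe of let-7d-3p, so the order of these probes was not read. From brightest to dimmest the difference was 5.06 ± 0.06 for let-7a-3p, 2.57 ± 0.29 for let-7b-3p and 1.82 ± 0.21 for let-7f-1-3p, larger for let-7a-3p than for any guide arm of the family.

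**Figure D5:**
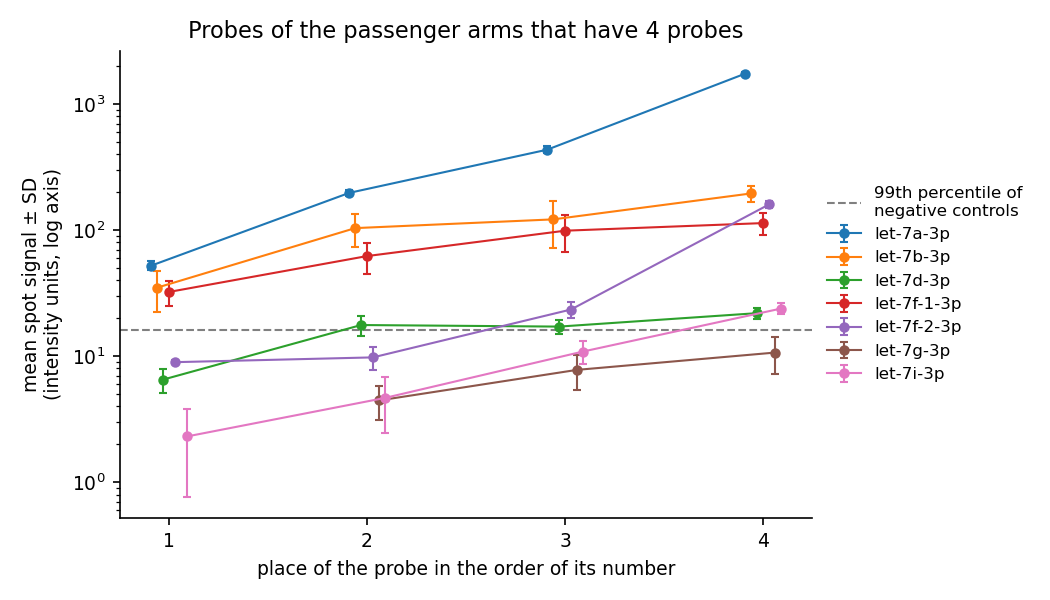
Mean spot signal ± SD (log axis, intensity units, 5 spots or 4 where an outlier was left out) of the probes of the 7 passenger arms with 4 probes, against the place of the probe in the order of its number, with a dashed line at 16.1, the 99th percentile of negative control spots. For let-7a-3p the means rise from 52.4 to 1749.7, and the lowest probe of let-7g-3p is not drawn because its mean of -0.120 has no place on a log axis.

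Some let-7 hairpins are transcribed with miRNAs of other families. These cluster partners were all called detected, 5 of 5, each with every spot well above background. Over all miRNAs on the array 44.4% were called detected and 25.2% had every spot well above background. The signal was 719.8 ± 60.1 for miR-100-5p and 174 ± 12.5 for miR-125b-5p, which are partners of let-7a-2, and miR-125b-5p is also read from the let-7c locus. It was 54.9 ± 4.71 for miR-99a-5p, the partner of let-7c. For miR-99b-5p and miR-125a-5p, the partners of let-7e, it was 8.38 ± 0.904 and 26.8 ± 2.03. Probes of miR-99a-5p and miR-100-5p differed by 2.30 ± 0.04 and 2.10 ± 0.05 on the log2 scale, and those of the other 3 by 0.27 to 0.50.

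The seed GAGGUAG is carried by 11 human miRNAs in RefSeq, all on the array, so 2 lie outside the family as defined here. They are shorter than the members. After the seed miR-4458 soon departs from the family, while miR-4500 keeps the bases uaguuu of let-7g-5p and let-7i-5p before it departs.
miR-4458: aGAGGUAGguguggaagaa
miR-4500: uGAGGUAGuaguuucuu
Both were called detected, where 44.4% of all miRNAs on the array were. The total gene signal of miR-4458 was 52.7 ± 3.81, with all 20 spots well above background and probes 0.33 ± 0.03 apart. That of miR-4500 was 10.2 ± 1.01, with 19 such spots and probes 0.72 ± 0.12 apart, and its spots ran from 17.9 to 46.2.

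The authors also deposited quantile-normalized log2 values, in which the 9 guide arms had the same order as in total gene signal. Quantile normalization keeps the order of values within an array, so this order was fixed in advance if it started from the totals. Dim miRNAs lose their order in the deposited values, since let-7i-3p, miR-98-3p and let-7g-3p were all given as 2.32, and so were the undetected let-7c-3p and let-7e-3p. For the guide arms they ran from 8.86 for let-7e-5p to 13.73 for let-7f-5p, a span of 4.88 against 5.32 in log2 total gene signal. Deposited minus log2 total gene signal was -0.47 for both let-7f-5p and let-7a-5p, -0.03 for let-7e-5p and -0.29 at the median, so the brightest members were drawn down the most. The deposited table gives 1 value per miRNA and does not show that the probes of let-7c-5p, let-7d-5p, let-7e-5p and miR-98-5p disagreed.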

How the data were processed

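MiRNA levels of 1 DLD-1 sample (si-NC) were analysed. The labels give ligation of Cyanine 3-pCp as the labelling step, the methods of the study give cDNA labelling, and which applies is not known. Feature Extraction 11.0.1.1 read the image, per the file headers. The deposited file of the scanner lists, per spot, the intensity after background subtraction, flags of the software, and total signals. The total of a member equalled the sum of its probe totals within 0.1% for all 9, and a probe total was 0.0183 times the number of its spots, outliers included, times the mean of its kept spots. The authors also deposited log2 values, quantile normalized in GeneSpring. No other sample column was present (0 left out).

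Control and outlier spots were left out. A probe past the filter had 50% or more of its spots well above background. Levels, CVs and probe differences were computed with Python 3.11.15, numpy 2.4.6 and pandas 2.3.3, figures with matplotlib 3.10.9, and normexp (offset 50, on median spot signal because the file has no mean) with limma 3.58.1 in R 4.3.3. On simulated spots of 5893 probes of 2549 miRNAs, a CV of 10.0% came back as 9.49%, and a probe difference of 2.00 as 2.01 over 200 miRNAs. Every simulated spot counted as well above background and none as an outlier, so the filter and the removal of outliers were not exercised. All 9 members, every detected miRNA of the listed passenger arms, cluster partners and seed sharers with its signal, and the rest by name, were to be named. Members and lists were chosen with earlier results of these data known. Alternatives were other detection rules, the 75th percentile over all spots, normexp, outlier spots kept, no filter, median spots and deposited values. Values counted as unchanged within 1 SD over replicate spots, CVs within the sampling error of a CV over 10 spots, and counts within 1.5 times. The single array limits the precision.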

Additional observations from a re-analysis of the deposited data

How the results depend on the processing

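Over 26 results, 103 alternative values were computed, of which 65 stayed within their limits and 38 moved, 30 of these for single miRNAs, and 0 reversed. Counts and CVs have no sign, and a difference of brighter minus dimmer probe is never negative, so none of these could reverse. All probes of the guide arms pass the filter on dim probes, so the run without it could not change their values. The count of guide arms detected stayed at 9, and that of members with probes 1 or more apart at 4, under every alternative run. The count of passenger arms detected fell from 8 to 3 under the rule that every probe be above background, and to 5 both under the rule on negative controls and under that on a signal of 5 or more. The share of all miRNAs past these rules is not given here, so whether other miRNAs fell alike cannot be read. The median level, 6.01, which is that of let-7c-5p, moved to 8.45 where the reference was taken over all miRNA spots and fell from 143 to 26.3, to 5.53 with normexp, 6.10 with outlier spots kept and 5.96 with deposited values. The median CV moved from 2.71% to 3.39% with outlier spots kept. The difference between the let-7e-5p probes, 3.31, was 3.07 with normexp, which adds an offset to all signals. Otherwise the cause was not tested. No paired analysis was possible because 1 sample was analysed. Signal over background limits the dim passenger arms.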

Other observations

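Spots of the guide arms were also set against their place on the array. Relative to the mean of their probe on the log2 scale, the 39 kept spots in the block of rows with the lowest numbers, 1 of 4 equal blocks, had a median of -0.03, the 46 in the next block -0.01, the 42 in the next 0.01 and the 43 in the last 0.03. Single spots lay between -0.21 and 0.19 of their probe mean. Each deviation is taken about the mean of its own probe, so a shift between the probes of a member does not show in it. Probe differences were 1.37 to 3.31 in miR-98-5p, let-7d-5p, let-7c-5p and let-7e-5p, and 0.01 to 0.35 in the other 5 members. Whether place on the array contributes to them was not tested.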
